A study of Bos taurus with 2 samples.

Results

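The creatine kinase system and the enzymes that handle adenylate were examined in the *longissimus thoracis* (LT) muscle of fetal calves whose dams were underfed or well fed. The 9 genes were chosen by name for what their products do. They encode creatine kinases (*CKM*, *CKB* and *CKMT2*), the creatine transporter (*SLC6A8*), the enzymes of creatine synthesis (*GATM* and *GAMT*), an adenylate kinase (*AK1*) and AMP deaminases (*AMPD1* and *AMPD3*). A gene was found on the array when the RefSeq accession of a probe matched its symbol among the RefSeq genes of assembly ARS-UCD2.0. This gave 23 probes for 8 of the 9 genes, among 19554 genes with a value on the array, and *AMPD3* was not analysed here. Of the 19554, 10637 had a symbol, and each accession without one was counted as a gene of its own. Shares of all genes include both kinds.

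All animals were Japanese Black cattle, and all dams were inseminated with male-sorted semen of the same sire. The dams of the high-nutrition (HN) group received 120% of their nutritional requirement and those of the low-nutrition (LN) group 60%, both through gestation and the period before it, and the muscle was taken at 8.5 months of gestation. Each group was represented by RNA mixed from 4 fetuses, the heaviest ones for HN and the lightest ones for LN, and each mixture was hybridized to 1 one-color Agilent Bovine (v2) array. Diet and the choice of fetuses by bodyweight therefore cannot be told apart, the spread between fetuses is unknown, and no test between the groups was possible.

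Phosphocreatine is the rapid energy reserve of muscle. Creatine kinases move phosphate between ATP and creatine, with *CKM* encoding the cytosolic muscle subunit, *CKB* the cytosolic brain-type subunit, which is also made in immature muscle and smooth muscle, and *CKMT2* the mitochondrial enzyme of striated muscle. Creatine itself is made in sequence by GATM, which joins arginine and glycine, and GAMT, which methylates the product, and it enters muscle cells through SLC6A8. Adenylate kinase 1 turns ADP into ATP and AMP in the cytosol, and AMPD1, the muscle form of AMP deaminase, removes AMP as IMP.

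A gene was called lower or higher in the LN pool when its log2 LN/HN was beyond 0.32 in size, the limit on fold that the study set for its pathway lists. *CKB* and *AMPD1* were the members that fell past this limit, with log2 LN/HN of -0.49 and -0.46 (fold HN/LN of 1.41 and 1.37). No member rose past it, and none passed 2-fold in either direction. *CKM* and *SLC6A8* had lower values in the LN pool (-0.24 and -0.28) that did not reach the limit, *AK1* was close to 0 (-0.04), and *GAMT* (0.20), *GATM* (0.11) and *CKMT2* (0.08) had slightly higher values. The median over the 8 genes was -0.14, against -0.0033 over all genes with a value, and ranged from -0.19 (75th percentile subtracted) to -0.06 (brightest probe of each gene) over the alternatives. Of all these genes, 9.11% were past the limit lower and 8.85% past it higher in the LN pool, beside 2 and 0 of the 8 members. The shares over all genes were 13.6% lower and 6% higher after subtracting each array's 75th percentile instead of quantile normalization, and 11.4% and 7.39% without normalization.

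**Figure D1:**
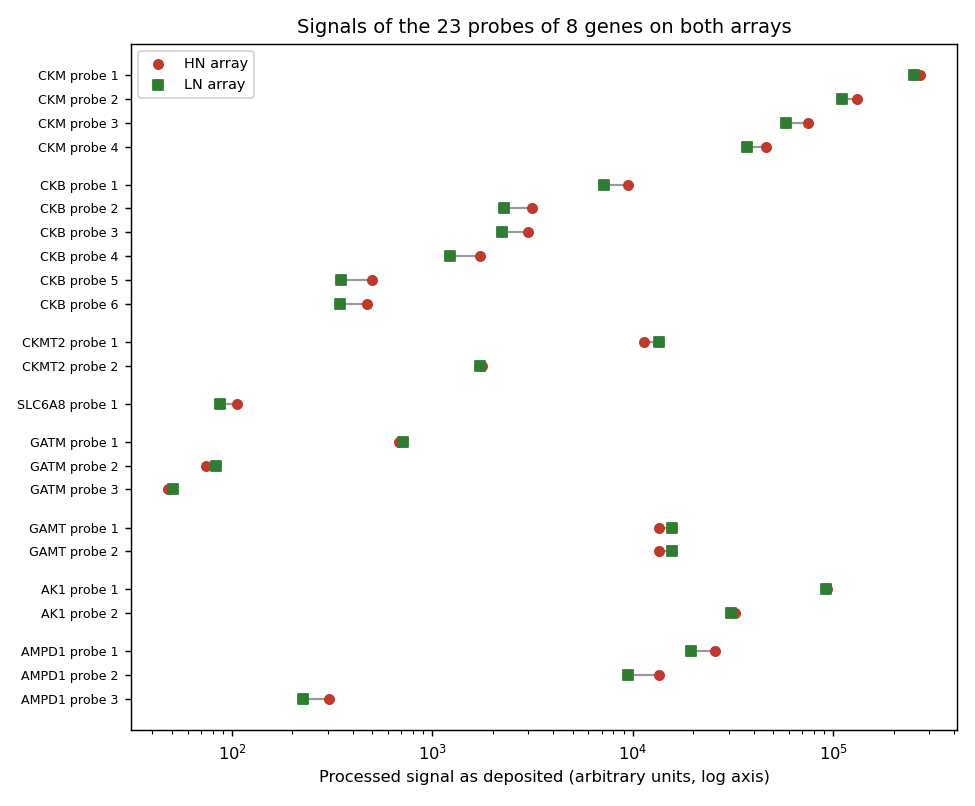
Processed signal of each of the 23 probes, as deposited and before normalization between arrays, on a log axis in arbitrary units. Circles are the HN array and squares the LN array, each 1 pool of 4 fetuses, and the square lies left of the circle in all 6 probes of CKB, all 4 of CKM and all 3 of AMPD1. Probes are numbered within a gene from the highest HN signal.

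The error of these values can be judged only for the array measurement. A total of 42 well-measured probes are spotted repeatedly, and among their spots the log2 LN/HN had an SD of 0.086, and the median SD between probes of the same gene was 0.10 over 7139 genes. The error estimate of the scanner software, which lay between 10.0% and 10.3% of the signal for every member probe, is wider and corresponds to 0.20 to 0.21 on the log2 LN/HN. Probes of a gene measure the same RNA on the same arrays and are not replicates of the diets. None of the 23 member probes was flagged as saturated. All of them were well above background in both pools, which held for 74.5% (HN) and 70.9% (LN) of the non-control spots.

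*CKB* (NM_001015613) was measured by 6 probes. Their signals on the HN and LN arrays were 9495 and 7163, 3119 and 2282, 2982 and 2223, 1727 and 1225, 501 and 350, and 469 and 345. Every probe was thus lower on the LN array, and after normalization the change in signal was -31.6% to -26.2%. The log2 LN/HN of the probes ran from -0.55 to -0.44, so that all 6 were past the limit and their SD was only 0.044 (n = 6 probes). The mean of -0.49 was 5.72 times the SD of a repeated spot, while the error estimate of the software was 0.20 for each probe.

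Among the 125 genes for which 6 or more probes were measured in both pools, *CKB* and *PDK4*, a kinase of the pyruvate dehydrogenase complex, were the only ones with every probe past the limit lower, and *ELN*, which encodes elastin, the only one with every probe past it higher. The minimum of 6 is the number of probes of *CKB* itself. With 3 or more probes measured in both pools, 1.44% of 2987 genes had every probe past the limit lower. Of the 4 members with so many probes, *CKB* and *AMPD1* met this and *CKM* and *GATM* did not.

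*CKM* (NM_174773) was measured by 4 probes with signals in HN and LN of 270438 and 251354, 131517 and 111015, 74849 and 57805, and 45936 and 36909. All were lower on the LN array, but to unequal degrees. In this order the log2 LN/HN was -0.07, -0.23, -0.35 and -0.30, and 1 of the 4 probes was past the limit. The mean of -0.24 with an SD between probes of 0.12 (n = 4 probes) left *CKM* short of the limit, as did each of the 10 alternative settings, which gave -0.29 to -0.07. Of these settings, 3 change the handling of dim or flagged spots and could not alter any of the 8 genes. The value nearest to 0 was that of the brightest probe alone, and the values the authors normalized, which cover 2 of the 4 probes, gave -0.14.

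The ranges of the *CKB* and *CKM* probes did not overlap, with the highest *CKB* probe at -0.44 and the lowest *CKM* probe at -0.35. How often the probe ranges of a pair of genes do not overlap was not counted. Whether the genes differed in their response between fetuses was not tested, as each pool was measured once. The sequences of the probes were not used here, and cross-hybridization between the creatine kinase transcripts was not tested.

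*CKMT2* (NM_001034656) had 2 probes that did not move together. In 1 probe the signals of HN and LN were 11395 and 13434, a log2 LN/HN of 0.24, and in the other 1768 and 1727, a log2 LN/HN of -0.08. The mean of 0.08 was smaller than the SD between its probes (0.22) and than the SD of a repeated spot, so no direction can be read for the mitochondrial creatine kinase. The other mitochondrial form, *CKMT1A*, had 1 detected probe whose log2 signals were 5.28 (HN) and 5.51 (LN), and its log2 LN/HN of 0.23 was short of the limit.

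**Figure D2:**
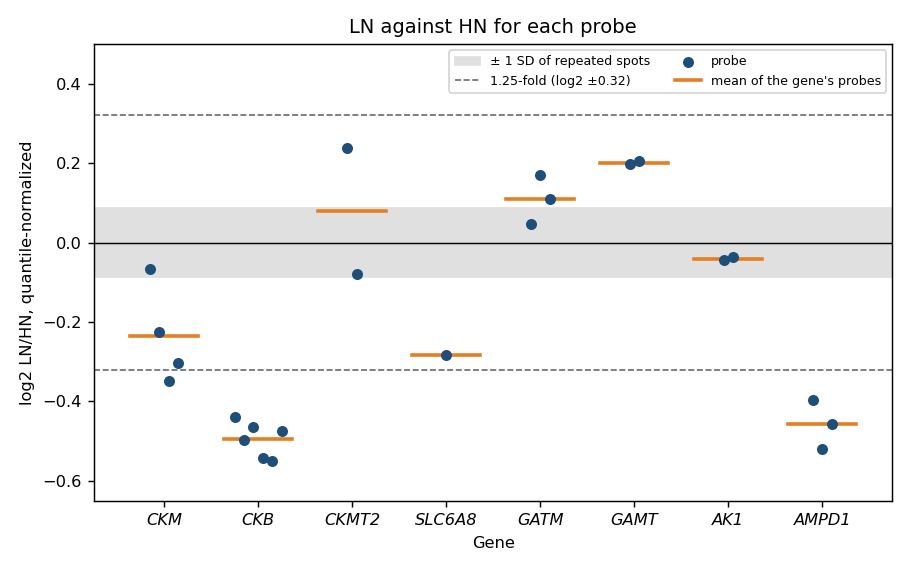
Log2 LN/HN after quantile normalization for each probe (points) and the mean over the probes of a gene (orange bars), with the band of 1 SD of repeated spots (0.086, grey) and the limit of 0.32 (dashed). All 6 probes of CKB and all 3 of AMPD1 lie below the lower dashed line, whereas those of CKM spread from -0.35 to -0.07 and those of CKMT2 lie on both sides of 0.

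Of the enzymes that make creatine, *GAMT* (NM_001038544) had nearly the same value in both of its probes. Their signals in HN and LN were 13571 and 15610, and 13501 and 15647, which gave log2 LN/HN of 0.20 and 0.20. The mean of 0.20 corresponds to a signal 14.9% higher in the LN pool, 2.33 times the SD of a repeated spot, but below the limit and no larger than the error estimate of the software. *GATM* (NM_001045878), the first enzyme of the route, was at 678 and 716, 73.8 and 82.7, and 48.1 and 50.9. Its 3 probes were all higher on the LN array, with log2 LN/HN from 0.05 to 0.17 and a mean of 0.11 (SD 0.062, n = 3 probes), which is little more than the SD of a repeated spot.

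*SLC6A8* (NM_174611), through which muscle takes up creatine made elsewhere, was represented by 1 probe, with a signal of 106 for HN and of 86.7 for LN. No further probe was there to set beside it, and the error estimate of the software for its log2 LN/HN was 0.21. The log2 LN/HN of -0.28 was 3.28 times the SD of a repeated spot. The value was past the limit in 1 of the 10 alternatives, the subtraction of the 75th percentile (-0.33), and was smallest after the normexp background correction (-0.18). Synthesis and uptake genes thus had values on opposite sides of 0, none of them past the limit.

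The adenylate enzymes differed from each other. *AMPD1* (NM_001100349) was measured by 3 probes with HN and LN signals of 25807 and 19431, 13461 and 9478, and 304 and 226. All 3 were past the limit lower, with log2 LN/HN of -0.40, -0.52 and -0.46, and the mean of -0.46 (SD 0.062, n = 3 probes) means that the signal fell by 27.2%. The value stayed between -0.50 and -0.40 over the 10 alternatives, past the limit in each.

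*AK1* (NM_001013582) had signals of 92787 (HN) and 91526 (LN) in 1 probe and of 32366 and 30870 in the other. Both probes gave a log2 LN/HN of -0.04, less than the SD of a repeated spot. *AK1* and *AMPD1* act on neighboring steps of AMP handling, and their probes did not overlap in log2 LN/HN. How often this holds for other pairs of genes was not counted.

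**Figure D3:**
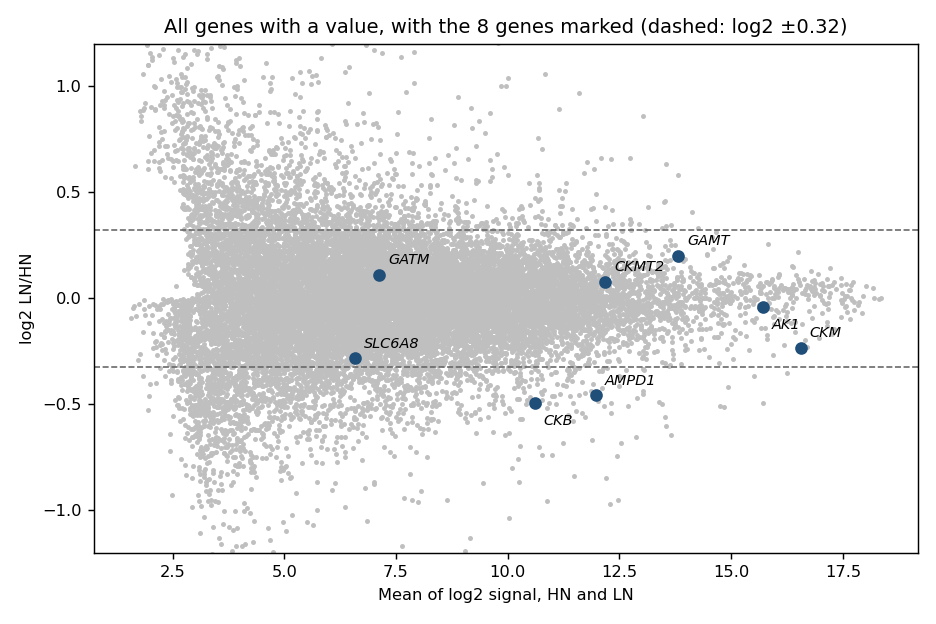
Log2 LN/HN against the mean log2 signal of the HN and LN arrays for all 19554 genes with a value (grey), with the 8 genes in blue and the limit of 0.32 dashed. CKB and AMPD1 lie below the dashed line and CKM near the lower edge of the brightest genes, and the axis is limited to a log2 LN/HN of 1.2 in either direction, which leaves out 89 genes.

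The spread of all genes depended on their signal, so the members were also set beside genes measured at a like signal. Of the 4035 genes with a mean log2 signal from 9 to below 12, the range that holds *CKB* and *AMPD1*, 3.94% were past the limit lower in the LN pool. Only 48 of these genes had a lower log2 LN/HN than *CKB*, and 63 a lower one than *AMPD1*. *CKM* belonged to the 233 genes with a mean log2 signal of at least 15, whose log2 LN/HN had an SD of 0.10, and 6 of them were lower than *CKM*. *AK1* was in the same range, where 62 genes were lower. Of the 974 genes from 12 to below 15, 65 were higher than *GAMT* and 245 higher than *CKMT2*. Of the 7166 genes from 6 to below 9, 576 were lower than *SLC6A8* and 2018 higher than *GATM*. These counts describe the 2 arrays and are not tests.

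**Figure D4:**
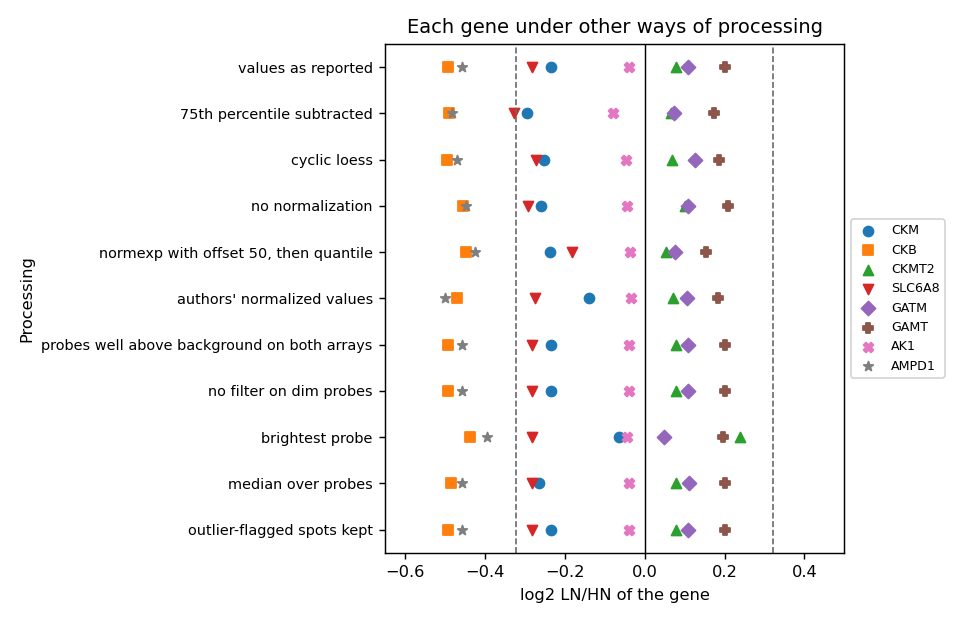
Log2 LN/HN of each of the 8 genes as reported (top row) and under 10 alternative ways of processing, with the limit of 0.32 dashed. CKB and AMPD1 lie past the dashed line in every row, SLC6A8 only where the 75th percentile was subtracted, and no gene changes the side of 0 on which it lies.

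Other genes of the same pathways were described from lists written by hand, with 48 genes with a value among the 56 named. Of these, 5 were past the limit higher and 1 past it lower in the LN pool, beside 8.85% and 9.11% of all genes, and their median was 0.06. For the other adenylate kinases, 6 genes had a value. *AK6*, a nuclear form (0.35, 1 probe), was past the limit higher, *AK8*, which is known from motile cilia (-0.40, 2 probes), was past it lower, and the mitochondrial *AK3* (0.07) and *AK4* (0.22, or -0.01 to 0.27 over the alternatives) were not. *AK6* was past the limit in 9 of the 10 alternatives (0.28 to 0.40) and *AK8* in 8 (-0.51 to -0.28).

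In the purine nucleotide cycle, which returns the IMP made by AMP deaminase to AMP, *AMPD2* had a log2 LN/HN of 0.09, *ADSL* of -0.10 and the muscle adenylosuccinate synthase *ADSS1* of -0.02. Over the alternatives *AMPD2* ranged from -0.07 to 0.17 and *ADSS1* from -0.02 to 0.07, so neither has a settled direction. The other synthase, *ADSS2*, was past the limit higher with 0.37 from 1 probe (0.28 to 0.41 over the alternatives). None of these 4 genes was past the limit lower. Among the 11 genes of nucleotide breakdown and salvage none passed the limit, with values from -0.29 (*NT5C3A*, a cytosolic nucleotidase) to 0.21 (*ADK*, adenosine kinase). None of the 6 nucleoside diphosphate kinases passed it (*NME3*, -0.13, to *NME7*, 0.10), and neither did the 7 genes of adenine nucleotide and phosphate exchange across the mitochondrial membranes (*SLC25A3*, the phosphate carrier, -0.17, to *VDAC1*, an outer membrane channel, 0.07), among them *SLC25A4*, the adenine nucleotide carrier of muscle, with 0.02 (-0.02 to 0.03 over the alternatives).

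Creatine is made from arginine and glycine, with S-adenosylmethionine as the methyl donor. Of 7 genes of arginine and methyl donor metabolism, 6 were above 0. Past the limit higher were 3 of them (2 to 4 over the alternatives), beside 8.85% of all genes. *GNMT*, which encodes a methyltransferase that acts on glycine and uses the same methyl donor as GAMT, had log2 signals of 8.41 (HN) and 9.36 (LN) from 1 probe, and so rose by 0.95. *MAT2A*, which makes the methyl donor, rose by 0.43 (2 probes), and *ASL*, which releases arginine, by 0.39 (1 probe). *ASS1* (0.25), *MAT2B* (0.20) and *ARG2*, which breaks down arginine (0.15), did not reach the limit, and *AHCY* had -0.07. The rise of *GNMT* and *MAT2A* was past the limit in each of the 10 alternatives, and that of *ASL* in 9. Of the sarcomere proteins and ion pumps that creatine kinase serves, none of 6 passed the limit, with *ATP2A1*, the calcium pump of fast fibers, at -0.20.

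The tissue carried the defining transcripts of skeletal muscle, since 15 of 16 markers, *CKM* included, had a value. Of these 15, 11 were below 0 and 3 above it, with a median of -0.12. With the brightest probe of each gene the median was -0.04, and with the 75th percentile subtracted 14 were below 0. Markers of fast fibers, in which *AMPD1* and *CKM* are known to be abundant, included *ACTN3* (-0.60) and *MYH1* (-0.50, with probes from -0.81 to -0.07), which were past the limit lower, and *MYH2* (0.03, or -0.06 to 0.04 over the alternatives), which was not. Of the 7 fast fiber markers 2 were past the limit lower, beside 9.11% of all genes, and 5 were below 0, with a median of -0.20. The median of the 6 slow fiber markers was -0.09 (-0.02 with the brightest probes), with none past the limit. The oxygen store *MB* was also lower (-0.37, past the limit in 9 of the 10 alternatives), whereas the perinatal myosin *MYH8* was higher (0.35, with probes from 0.04 to 0.61), although its brightest probe alone gave 0.04. The part of fiber composition in the values of *AMPD1* and *CKM* was not tested. In such tissue RNA, fewer fibers of a type and less RNA per fiber cannot be told apart.

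Markers of other cell types moved as well. Of the smooth muscle markers, where *CKB* is also known to be expressed, 5 of 6 were below 0 and *ACTA2* (-0.33), *TAGLN* (-0.33) and *MYH11* (-0.49) were past the limit lower, beside 9.11% of all genes. The count of 3 ranged from 1 (without normalization, and after the normexp correction) to 4 (75th percentile subtracted) over the alternatives. The summed signals of these markers were 10981 (HN) and 8881 (LN), and most of each sum came from *ACTA2*. Its log2 signals were 13.20 (HN) and 12.87 (LN) from 1 probe. The log2 LN/HN was 0.14 for *LMOD1* and -0.03 for *SMTN*. The median was -0.31 for smooth muscle, -0.29 for 5 macrophage markers, -0.21 for 6 endothelial markers and -0.16 for 5 erythroid markers. After the normexp correction the macrophage median was -0.13 and the erythroid one -0.04. It was 0.34 for 6 fibroblast markers, of which 4 were past the limit higher (2 with the authors' values), beside 8.85% of all genes, 0.22 for 3 adipocyte markers (0.04 without a filter on dim probes) and 0.07 for 6 markers of nerve and Schwann cells. No probe of *LEP* or *SLC4A1* was well above background in either pool. The part of these cells in the values of *CKB*, *GATM* and the other members was not tested.

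**Figure D5:**
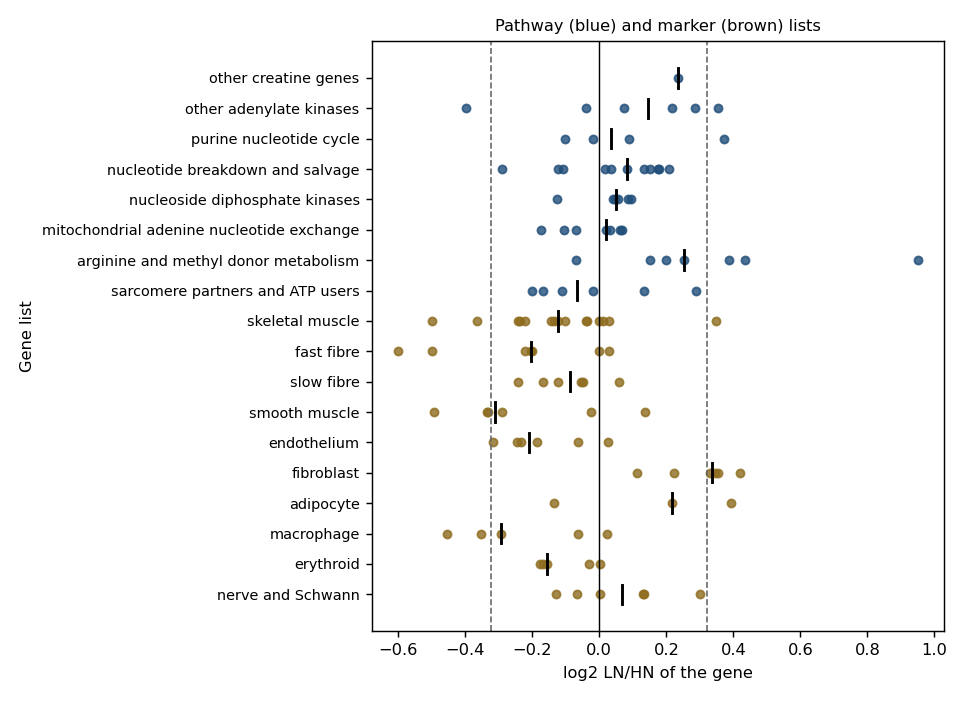
Log2 LN/HN of the genes with a value in 8 pathway lists (blue) and 10 marker lists (brown), 1 point per gene, with the median of each list as a black bar and the limit of 0.32 dashed. The genes of arginine and methyl donor metabolism and the fibroblast markers lie mostly to the right of 0, and the smooth muscle, macrophage and fast fiber markers mostly to the left.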

How the data were processed

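Total RNA of fetal LT muscle was measured on 2 one-color arrays, 1 pool of 4 fetuses per group. The authors extracted and deposited the spot intensity with Agilent Feature Extraction 11.0.1.1, as background-corrected and detrended signals without normalization between arrays, with error estimates and flags. For 30027 probes the authors deposited log2 values as well, from quantile normalization in GeneSpring GX. The scale of that table was judged from its values.

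From the intensities of 43803 non-control spots, log2 values were quantile-normalized with limma 3.58.1 in R 4.3.3. The 13 spots with an outlier flag were removed, and spots of a probe were averaged (Python 3.11.15, numpy 2.4.6, pandas 2.3.3). Probes had to be well above background in 1 pool or both. In a pool where a probe was not, the lowest signal well above background on that array took the place of a dimmer value. The mean log2 LN/HN over the detected probes was taken for a gene. Accessions of 26742 probes matched 12603 symbols. Coordinates are left out, since the design rests on another assembly. Probe and gene sequences were not used here. The number of arrays limits the precision, and no p-value was computed. The averaging over spots and probes was tested on simulated data. The normalization, the replacement of dim values and the matching of accessions were not.

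All members are named, and genes of the pathway and marker lists are named where they passed the limit on fold, were at an end of their list or bear on a member, except for some that are not reported here. *PDK4* and *ELN* were named after their values were seen. The members, lists and 10 alternatives were chosen with earlier results of these data known. Figures were drawn with matplotlib 3.10.9.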

Additional observations from a re-analysis of the deposited data

How the results depend on the processing

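No paired analysis was possible because each group had 1 array, and for the same reason no replicate could be left out. Under 10 alternatives (3 other scalings, normexp background correction with offset 50 on the median signals, 2 other filters on dim probes, the authors' normalized values, the brightest probe, the median over probes, and flagged spots kept), the count of members past the limit lower was 2 or 3 and that of members past it higher was 0. Each of the 8 members kept its sign in all of them. *CKB* (-0.49 to -0.44) and *AMPD1* were past the limit throughout. No member probe was dim or flagged, so the filters and the kept spots changed none of them, and 7 of the 10 alternatives bear on the members. Of the 80 member values, 29 were identical to those reported and 4 moved by more than the SD of a repeated spot, namely *CKM* with the authors' values and with its brightest probe, *CKMT2* with its brightest probe (0.24) and *SLC6A8* after the normexp correction. That correction, which adds an offset to every signal, left 1.96% of all genes past the limit lower and 1.62% past it higher. The median of the purine nucleotide cycle list ranged from -0.04 to 0.08, that of mitochondrial exchange from -0.02 to 0.02 and that of nerve markers from -0.03 to 0.18, so these have no settled direction. The smooth muscle median ranged from -0.33 to -0.21 and that of the arginine and methyl donor genes from 0.16 to 0.37.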

Other observations

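The normalized table of the authors held 19 of the 23 member probes. Not in it were 2 probes of *CKM* and 2 of *AMPD1*, although all of these were well above background on both arrays. The absent *CKM* probes had log2 LN/HN of -0.35 and -0.30, while those in the table had -0.07 and -0.23 here. For *AMPD1*, the absent probes had -0.40 and -0.46 and the probe in the table -0.52 here.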
